A study of Mus musculus with 6 samples.

Results

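The genes of iron-sulfur cluster assembly described here were Nfs1, Iscu, Hscb, Glrx5, Isca1 and Isca2, whose products work in mitochondria, and Nubp1, Ciao1 and Mms19, whose products work in the cytosol. They were chosen by gene symbol for this function, with earlier results of these data known, and all 9 were found among the 55487 gene identifiers of the files. The cells were J774 clone E, an established line of mouse macrophages. Cells received either a negative control siRNA or an siRNA against NCOA4, the cargo receptor that delivers ferritin to the autophagosome. RNA was profiled by RNA-seq in 3 libraries labelled as biological replicates for each siRNA, from cells under standard growth conditions with no erythrocyte, iron or lipopolysaccharide treatment named in the labels. Nothing in the labels says that the replicates came from separate cultures, so p-values measure only the spread between these libraries. Only 1 NCOA4 siRNA was used, so the loss of NCOA4 and any other effect of that siRNA cannot be told apart, and no source used here ties a time from transfection to RNA isolation to these libraries.

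Iron-sulfur clusters are cofactors of iron and sulfide that carry electrons or hold substrates in enzymes of respiration, lipoate synthesis, DNA replication and DNA repair. In mitochondria, the cysteine desulfurase NFS1, stabilized by LYRM4 and an acyl carrier protein, passes sulfur to the scaffold ISCU, with a ferredoxin as the source of electrons. The cochaperone HSCB and the chaperone HSPA9 then move the new cluster from ISCU to the carrier GLRX5, and ISCA1 and ISCA2 build the larger clusters. The cytosolic branch starts on the NUBP1 and NUBP2 scaffold, and a complex of CIAO1, CIAO2B and MMS19 inserts the clusters into cytosolic and nuclear proteins. Macrophages are of interest here because ferritin turnover by NCOA4 is a source of iron within the cell, and the comparison asks whether transcripts of the assembly pathway differed when NCOA4 was depleted.

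Levels are given as TPM, the reads of a gene per length scaled to a fixed total for the library, so each is a share of a library, and fewer transcripts per cell cannot be told apart from a change in the rest of the transcriptome. The libraries held 15740320 to 18565389 reads on genes, as rebuilt from TPM and gene length. Ncoa4 was at 19.7, 22.5 and 22.4 TPM in the control libraries and at 9.63, 8.60 and 8.88 TPM in the NCOA4 siRNA libraries, which is 41.9% of the control mean (adjusted p = 0.00127 in limma). All 7 macrophage markers examined were present, and their levels summed to between 7401 and 7521 TPM in controls and between 7817 and 7958 TPM in NCOA4 siRNA libraries, mostly Lyz2. Of the 7, Adgre1 and Csf1r were higher at an adjusted p under 0.05, Lyz2, Itgam and Ptprc were higher in every NCOA4 siRNA library without passing, Spi1 overlapped, and Cd68 was lower in every NCOA4 siRNA library (adjusted p = 0.178, limma). The marker levels thus moved with the groups, not all in 1 direction, and their part in the results was not tested. Markers of T cells, B cells, fibroblasts, epithelium and erythroid cells stayed at or below 0.340 TPM. In reads, control replicate 1 stood apart from the other controls, with a chi-square per gene of 11.5 and 11.4 against replicates 2 and 3, while these 2 differed by 3.54 and NCOA4 siRNA replicates by 1.93 to 2.34. On the log2 scale of the tests the contrast was small. There the SD of the differences was 0.465 and 0.477 for control replicate 1 against 2 and 3. It was 0.450 between controls 2 and 3, and 0.436 to 0.452 between NCOA4 siRNA replicates. Values in 3s follow the order of the labels' replicate numbers, 1 to 3, and means are given ± SD over the 3 libraries of a group.

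Of the 9 assembly genes, Nfs1 rose in NCOA4 siRNA-treated cells, by 1.28-fold, and 0 met both an adjusted p under 0.05 and more than 1.5-fold change. The study used these thresholds with edgeR, and here they were applied to limma. Hscb, Isca2, Mms19 and Iscu had higher mean levels without passing the adjusted threshold, at 1.21-, 1.13-, 1.12- and 1.08-fold, and Nubp1, Glrx5, Isca1 and Ciao1 lay between 0.973- and 1.04-fold. Tests were made with limma on log2(TPM + 0.5) over 13829 genes, of which 1.18% passed both thresholds and 5.42% the adjusted p alone, 3.11% of all with a higher level. At an unadjusted p under 0.05, 5 of the 9 were higher and 0 were lower, where 21.6% of all genes tested passed and 12.7% were higher. In these 5 genes every NCOA4 siRNA library lay above every control library, as it did in 16.6% of all genes tested, out of 28.4% whose groups were separate in either direction. The median log2 fold change was 0.12 over the 9 genes and 0.03 over all genes tested, and 6 of the 9 values were above 0, as were 57.4% of all. On the rebuilt reads, limma-voom gave an adjusted p under 0.05 to 2 of the 9 genes (Nfs1 and Mms19) and to 10.8% of all. The 95% interval of the fold change, unadjusted for the number of genes, lay within 1.5-fold in either direction for 9 of 9 assembly genes and for 72.4% of all genes tested. The 9 genes were at 9.40 TPM or more in every library, while the genes tested reached down to a mean of 0.5 TPM. The shares over all genes in this paragraph are therefore not matched for level.

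**Figure D1:**
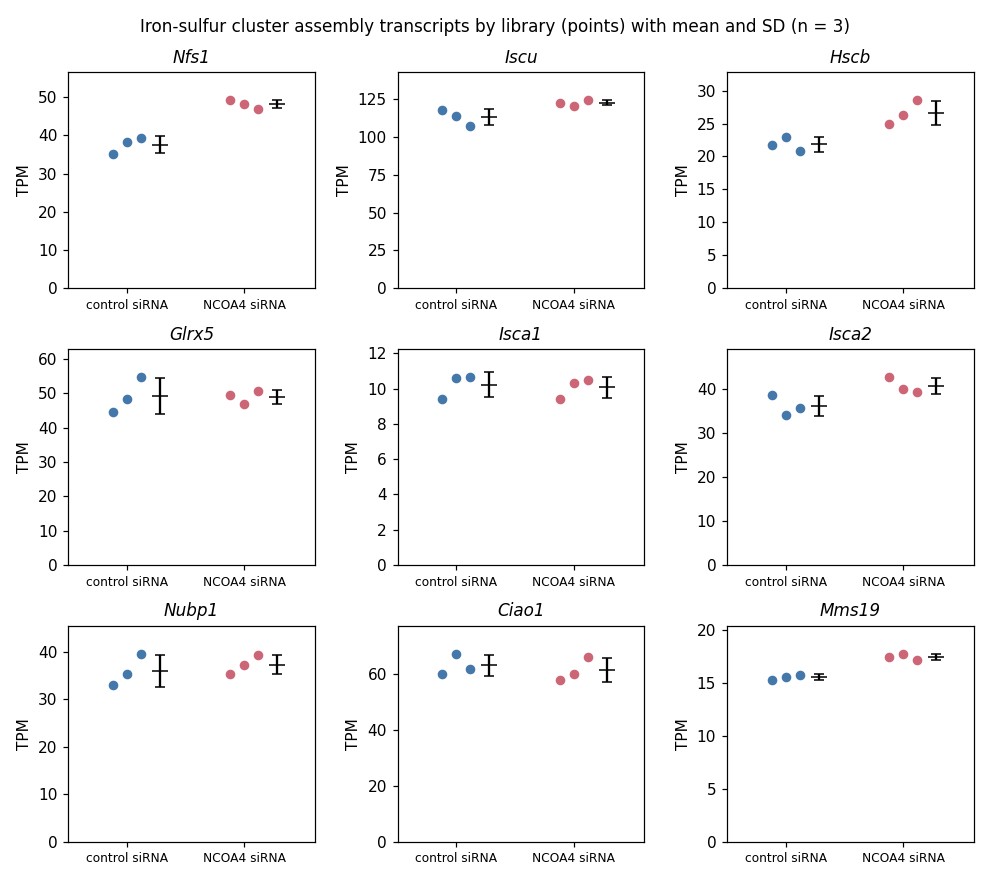
TPM of the 9 iron-sulfur cluster assembly genes in each library (points), with the mean and SD of the 3 libraries per group to the right; each axis starts at 0. The groups did not overlap for Nfs1, Iscu, Hscb, Isca2 and Mms19, and overlapped for Glrx5, Isca1, Nubp1 and Ciao1.

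**Figure D2:**
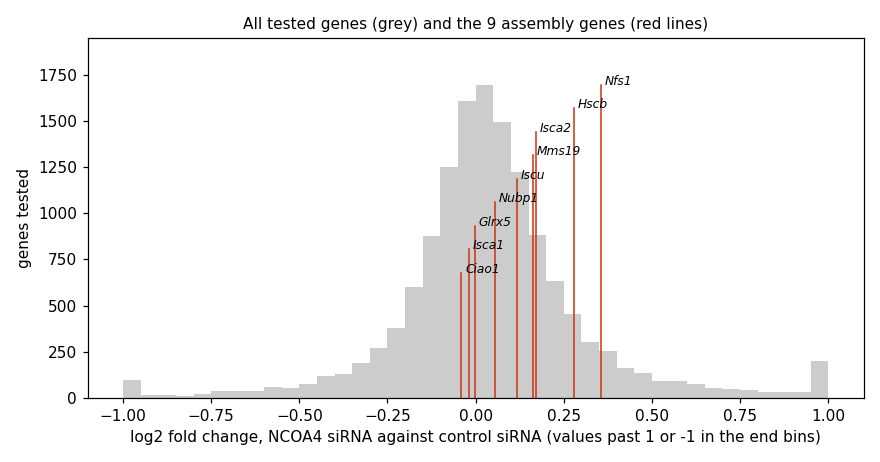
Number of genes tested (y axis) by log2 fold change of NCOA4 siRNA against control siRNA (x axis), with the 9 assembly genes as red lines of staggered height. The assembly genes lie between -0.04 (Ciao1) and 0.36 (Nfs1), and the median of all genes is 0.03.

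The desulfurase gene Nfs1 (ENSMUSG00000027618) occupies bases 156123639 to 156144186 of chromosome 2, minus strand, in GENCODE M21 on GRCm38, the annotation used for all gene positions given here. The control libraries held 35.05, 38.3 and 39.3 TPM of Nfs1 and the NCOA4 siRNA libraries 49.2, 48.2 and 47.0 TPM, on 727 to 1033 reads per library. Each NCOA4 siRNA value was above the highest control value, and the mean moved from 37.6 ± 2.24 to 48.2 ± 1.11 TPM. The log2 fold change was 0.36 (standard error 0.0549, 95% interval 0.23 to 0.49), with an adjusted p of 0.0180 from limma. An exact two-sided permutation test over the 20 arrangements of libraries gave p = 0.1, the smallest p this design allows. Without control replicate 1 the log2 fold change was 0.31 and the adjusted p 0.0165, where 5.84% of all genes passed. Without NCOA4 siRNA replicate 1, 2 or 3 the log2 fold change was 0.34, 0.36 or 0.37, and the adjusted p rose to 0.0904, 0.0925 or 0.0721. Nfs1 exons share 148 bases with those of Romo1 on the opposite strand and 256 with those of Gm28036 on the same strand, which was at 0 TPM, and whether the reads were counted by strand is not given in the sources used here. Romo1 averaged 95.01 ± 17.4 TPM in controls and 95.8 ± 9.56 TPM after NCOA4 siRNA.

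The letters of elements bound by transcription factors were looked up in the promoters of the assembly genes, since Nfs1 passed the adjusted threshold and the other 8 did not, and the motifs were picked with these values known. Promoters ran from 250 bases before to 50 after each RefSeq transcription start (GRCm38.p6), and 7 of the 9 genes had an entry, all but Iscu and Hscb. The antioxidant response element bound by NRF2 (TGACNNNGC, either strand) was found in Nfs1, Isca1 and Ciao1, and in 12.4% of all 32851 promoters. The assembly genes are counted as genes, while this share and those below are over promoter entries, a different unit. The ETS element CCGGAAGT was in the same 3 promoters and in 3.89% of all, while the ATF4 element TGATGNAA (3.97% of all) and the NRF1 element (0.971% of all) were in 0 of the 7. The antioxidant letters of Nfs1 and Isca1, which hold 2 matches each, are printed here on the strand of the gene, 5′ to 3′, with the match in capitals. Whether NRF2 acts on either gene was not tested. The Nfs1 windows also lie in the untranslated part of Romo1 exons on the other strand, and the Isca1 windows within the antisense gene Etohd2 outside its exons. These are matches of letters and do not show that a factor binds.
Nfs1, chr2:156144412-156144436 (minus strand): gtgaggGCCTGGTCAccagccgtgg
Nfs1, chr2:156144373-156144401 (minus strand): gggacgcacaGCAGGGTCAcatagcaccc
Isca1, chr13:59769908-59769936 (minus strand): cgcgaagcccGCAAGGTCAcaggtcacct
Isca1, chr13:59769884-59769912 (minus strand): cacctcccttGCCTCGTCAgtgatgacgg

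Iscu (chromosome 5, 113772748 to 113778288), which encodes the scaffold on which clusters are made, had the highest TPM of the set. It was at 118, 114 and 108 TPM in the controls and at 123, 121 and 125 TPM after NCOA4 siRNA. The groups did not overlap, but the gap between the highest control and the lowest NCOA4 siRNA library was small beside the control range. The log2 fold change of 0.12 (standard error 0.0442, 95% interval 0.01 to 0.22) had an unadjusted p of 0.0334 and an adjusted p of 0.189 from limma. Of the 75-base windows of Iscu transcripts, 5.26% also occur in Gm16437, which was at 12.9 ± 1.36 and 11.8 ± 0.505 TPM in control and NCOA4 siRNA-treated cells, so some reads could have been split between the 2 genes. The ratio of Nfs1 TPM to Iscu TPM within a library was 0.298 to 0.366 in controls and 0.378 to 0.401 with NCOA4 siRNA, without overlap. This pair was chosen after its values had been seen, and the ratio reuses the Nfs1 values given above.

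Hscb (chromosome 5, 110829070 to 110839777), the gene of the cochaperone that recognizes ISCU, was at 21.7, 23.0 and 20.8 TPM in the controls. After NCOA4 siRNA it was at 24.9, 26.4 and 28.6 TPM, so that all 3 libraries exceeded the controls. With 98 to 156 reads per library it had the fewest reads of the set. Its log2 fold change was 0.28 (standard error 0.0678, 95% interval 0.12 to 0.44), with an unadjusted p of 0.00464 and an adjusted p of 0.0675 from limma. The adjusted p was 0.0483 when only genes with a mean of at least 5 TPM were tested. Of the 16 alternatives only this 1 was under 0.05 for Hscb. With limma-voom on the rebuilt reads the adjusted p of Hscb was 0.148.

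Glrx5 (chromosome 12, 105032688 to 105042906), whose product receives the cluster from ISCU, was at 44.6, 48.2 and 54.8 TPM in controls and at 49.5, 46.8 and 50.8 TPM with NCOA4 siRNA. All 3 NCOA4 siRNA values lay inside the control range. The 95% interval of its log2 fold change ran from -0.19 to 0.19.

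The A-type carriers ISCA1 and ISCA2 act together late in the mitochondrial pathway. Isca2 (chromosome 12, 84773251 to 84775088) was at 38.6, 34.0 and 35.6 TPM in the controls and at 42.7, 39.9 and 39.3 TPM after NCOA4 siRNA. The groups did not overlap, though control replicate 1 came within 1 TPM of the lowest NCOA4 siRNA library. Its log2 fold change was 0.17 (standard error 0.0615, 95% interval 0.03 to 0.32), with an adjusted p of 0.170 from limma. Isca1 (chromosome 13, 59755409 to 59769810) had the lowest TPM of the 9 genes, at 9.41, 10.6 and 10.7 TPM in controls and 9.40, 10.3 and 10.5 TPM with NCOA4 siRNA. Its values in the groups were interleaved, with a 95% interval of the log2 fold change from -0.21 to 0.17. Of the 75-base windows of Isca1, 9.64% also occur in AK157302, which was at 11.05 ± 1.32 and 12.1 ± 0.729 TPM in control and NCOA4 siRNA-treated cells, so its counts are uncertain. The ratio of Isca2 to Isca1 was 3.55 ± 0.481 in controls and 4.05 ± 0.433 with NCOA4 siRNA, and its groups overlapped (exact permutation test, two-sided p = 0.3).

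Among the cytosolic genes, Mms19 (chromosome 19, 41941086 to 41981157), whose product helps deliver clusters to DNA polymerases and helicases, had replicates that lay close together. It was at 15.2, 15.6 and 15.8 TPM in the controls and at 17.4, 17.8 and 17.2 TPM after NCOA4 siRNA, with no overlap. The log2 fold change was 0.16 (standard error 0.0498, 95% interval 0.05 to 0.28) and the adjusted p 0.123 with limma. With limma-voom on the rebuilt reads, where 10.8% of all genes passed, the adjusted p of Mms19 was 0.0483. Of the 16 alternatives only this 1 was under 0.05, and the highest adjusted p of Mms19 was 0.315. Its exons share 959 bases with those of Zdhhc16 on the opposite strand, and Zdhhc16 was at 46.2 ± 4.17 and 45.5 ± 0.392 TPM in control and NCOA4 siRNA-treated cells.

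Ciao1 (chromosome 2, 127240938 to 127247816), its partner in the targeting complex, was at 60.0, 67.2 and 61.9 TPM in controls and at 57.9, 59.9 and 66.0 TPM with NCOA4 siRNA, and these values overlapped. The 95% interval of its log2 fold change was -0.20 to 0.12. The scaffold gene Nubp1 (chromosome 16, 10411948 to 10424428) was at 32.9, 35.3 and 39.6 TPM in controls and at 35.4, 37.3 and 39.3 TPM with NCOA4 siRNA, all 3 of the latter inside the control range. Its 95% interval was -0.13 to 0.24.

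TPM is a level per length, so the genes can be ordered by it, but the length is that of all annotated exons of a gene. This was 10680 bases for Isca1, 10415 for Mms19 and 905 for Hscb, and can exceed that of the transcript expressed. The order therefore depends on these lengths. With control siRNA the order was Iscu, Ciao1, Glrx5, Nfs1, Isca2, Nubp1, Hscb, Mms19 and Isca1, from 113 ± 5.13 to 10.2 ± 0.708 TPM. The libraries of neighbouring genes overlapped between Nfs1 and Isca2 and between Isca2 and Nubp1, and were separate for all other neighbours. With NCOA4 siRNA the order of the means was the same, but Nfs1 overlapped Glrx5 and was separate from Isca2, and Isca2 was separate from Nubp1.

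A further 27 genes of iron-sulfur cluster assembly and mitochondrial iron import were listed for the rest of the pathway, of which 26 were matched by symbol and tested. Of these, 1 was higher and 1 was lower at an adjusted p under 0.05, against 3.11% and 2.31% of all genes tested, and 0 passed the fold threshold (4 higher and 1 lower at an unadjusted p under 0.05, and 2 by limma-voom on the rebuilt reads). Values were above 0 for 17 and below 0 for 9, with a median log2 fold change of 0.04. The groups were separate upward for 7 of the 26 and downward for 1. Over all genes tested, the groups were separate upward for 16.6% and in either direction for 28.4%. Slc25a37, which encodes the mitochondrial iron importer mitoferrin-1, moved from 43.5 ± 1.75 to 50.9 ± 1.62 TPM, 0.23 on the log2 scale, adjusted p 0.0475 in limma. Hspa9, the gene of the chaperone that works with HSCB, moved from 467 ± 14.4 to 412 ± 7.95 TPM, -0.18 on the log2 scale, adjusted p 0.0492 in limma. Both were just inside the threshold, and leaving out any single library left 0 of the 26 genes inside it. The share of all genes that passed is given here only without control replicate 1, at 5.84%.

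The other pathway genes described for their role did not pass the adjusted threshold. Lyrm4, whose product stabilizes NFS1, was at 15.0 ± 1.70 and 17.2 ± 2.12 TPM in control and NCOA4 siRNA-treated cells, and its log2 fold change had a 95% interval of -0.08 to 0.45. Fdx1l, the gene of the mitochondrial ferredoxin FDX2, was low at 0.937 ± 0.245 and 0.849 ± 0.174 TPM, and 67.5% of its 75-base windows also occur in Gm38431. Nfu1, a late cluster carrier, and Ciapin1, an electron carrier of the cytosolic branch, had log2 fold changes of -0.07 and 0.10, with adjusted p-values of 0.534 and 0.342 (limma).

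**Figure D3:**
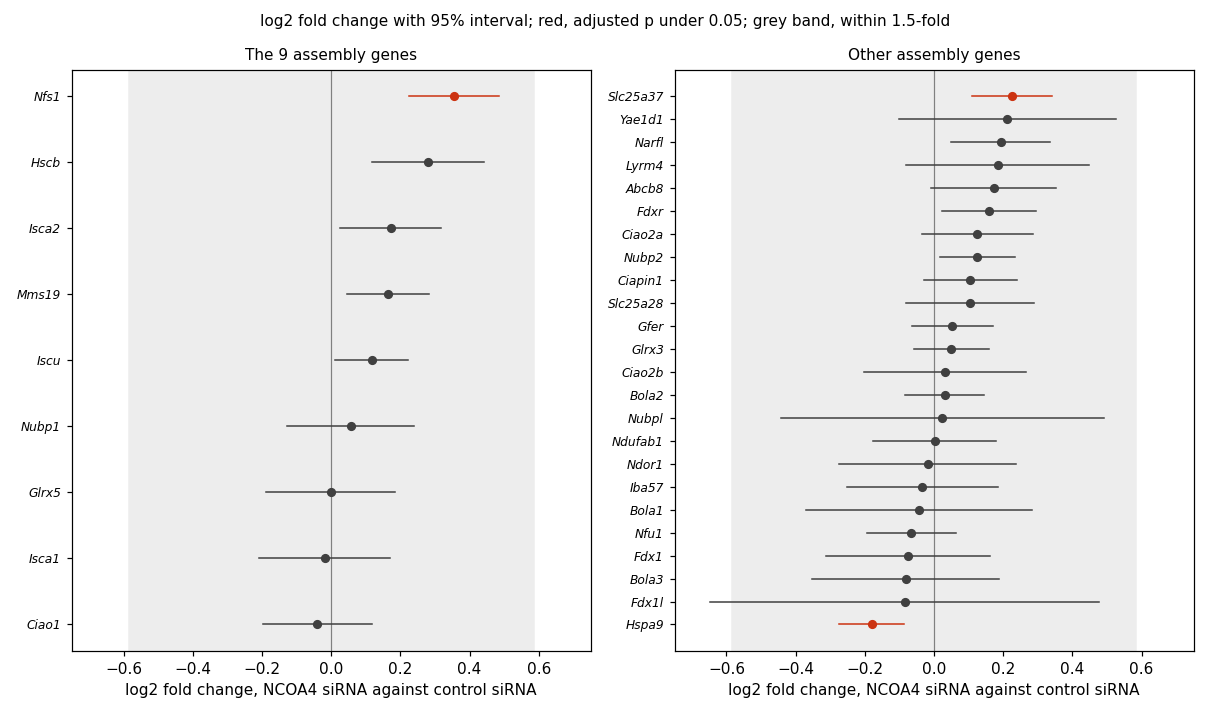
log2 fold change of NCOA4 siRNA against control siRNA (x axis) with its 95% interval for the 9 assembly genes (left) and other tested genes of the pathway (right); red marks an adjusted p under 0.05 and the grey band lies within 1.5-fold. Nfs1, Slc25a37 and Hspa9 are red, at 0.36, 0.23 and -0.18.

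Ratios of 2 transcripts within a library do not depend on how libraries are scaled. The pairs were chosen after their values had been seen and are given as descriptions. The ratio of Hscb to Hspa9, the cochaperone and chaperone genes, was 0.0459, 0.0481 and 0.0461 in controls and 0.0592, 0.0644 and 0.0703 with NCOA4 siRNA. Hscb was higher and Hspa9 lower in every NCOA4 siRNA library, so the groups could not overlap in this ratio. Their separation adds nothing to the values of the 2 genes. Nfs1 was higher relative to the cytosolic scaffold gene Nubp1, at 1.05 ± 0.0478 in controls and 1.29 ± 0.0976 with NCOA4 siRNA. Relative to its stabilizer Lyrm4 the groups overlapped, at 2.53 ± 0.414 and 2.83 ± 0.332.

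**Figure D4:**
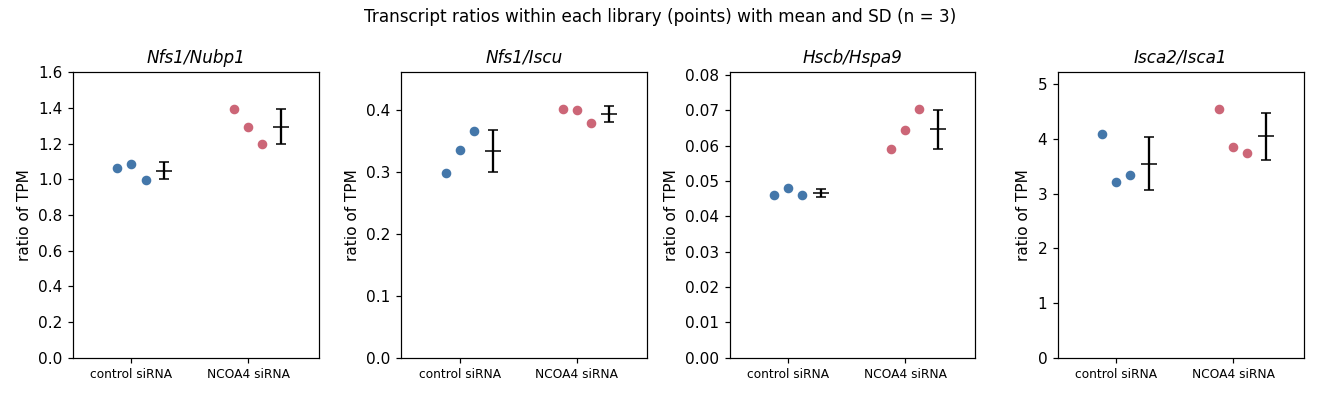
Ratio of TPM of 2 genes within each library (points), with the mean and SD of the 3 libraries per group; each axis starts at 0. The groups are separate for Nfs1/Nubp1, Nfs1/Iscu and Hscb/Hspa9, and overlap for Isca2/Isca1. For Hscb/Hspa9 the separation follows from Hscb being higher and Hspa9 lower in every NCOA4 siRNA library.

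The proteins that receive the clusters were examined through a list of 41 genes, of which 39 were tested, while Dpyd was listed at 0 TPM in every library and Aox1 was below the filter on low values. At an adjusted p under 0.05, 2 were higher and 1 was lower, 0 passed the fold threshold, and the median log2 fold change was 0.04 (5 higher and 2 lower at an unadjusted p under 0.05, and 4 by limma-voom on the rebuilt reads). Over all genes tested, 3.11% were higher and 2.31% lower at the adjusted threshold, 21.6% passed unadjusted and 10.8% by limma-voom, so the counts of the list were near the background. Mocs1, a radical SAM enzyme of the first step of molybdenum cofactor synthesis, rose from 16.3, 16.1 and 17.6 TPM in the controls to 22.7, 22.7 and 23.3 TPM after NCOA4 siRNA. Its log2 fold change was 0.45 with a standard error of 0.0552, and limma gave an adjusted p of 0.00882. Xdh, the xanthine dehydrogenase gene, whose product holds both iron-sulfur clusters and the molybdenum cofactor, rose from 21.4 ± 1.78 to 28.3 ± 1.16 TPM, 0.40 on the log2 scale, adjusted p 0.0275 in limma. Cisd3, which encodes a mitochondrial protein of the CDGSH family, fell from 123 ± 5.50 to 101 ± 1.80 TPM, -0.28 on the log2 scale, adjusted p 0.0203 in limma. Without NCOA4 siRNA replicate 1, 2 or 3 none of the 39 passed, and the adjusted p of Mocs1 was 0.0552, 0.0560 or 0.0562. The share of all genes that passed without these libraries is not given here. Without control replicate 2, Cisd3 was at 0.0537, and without control replicate 3, Cisd3 was at 0.0633 and Xdh at 0.0769.

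Aco1, Sdhb, Lias and Fech, described for their roles, had overlapping groups. Aco1, which is a cytosolic aconitase with its cluster and an iron regulatory protein without it, was at 70.3, 75.3 and 74.0 TPM in controls and at 71.5, 74.1 and 74.2 TPM with NCOA4 siRNA. The 95% interval of its log2 fold change was -0.10 to 0.10. Sdhb of respiratory complex II was at 148 ± 9.20 and 150 ± 2.75 TPM, Lias, the lipoate synthase, at 14.5 ± 1.40 and 14.5 ± 0.883 TPM, and Fech, the ferrochelatase, at 7.79 ± 0.553 and 7.74 ± 0.346 TPM. The complex I subunit gene Ndufs1, chosen after its values were seen, was at 71.2, 82.5 and 78.8 TPM in controls and at 85.4, 86.8 and 85.6 TPM with NCOA4 siRNA, without overlap (adjusted p = 0.197, limma). Etfdh and Ndufv2, 2 other genes of electron transfer chosen in the same way, were also higher in every NCOA4 siRNA library, with adjusted p-values of 0.335 and 0.369 (limma). Of the 39 tested genes of iron-sulfur proteins, 9 were separate upward and 5 downward. Over all genes tested, 16.6% were separate upward and 28.4% in either direction. Of the 8 genes of the respiratory chain and electron transfer, 0 had an adjusted p under 0.05 with limma or limma-voom and 1 had an unadjusted p under 0.05, with log2 fold changes of -0.04 to 0.15. Of the 11 genes of DNA replication and repair, 0 had an adjusted p under 0.05 by either tool and 1 had an unadjusted p under 0.05, with log2 fold changes of -0.16 to 0.18. With median centring Dna2, a nuclease and helicase of this group, was lower with an adjusted p of 0.0439 (limma).

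**Figure D5:**
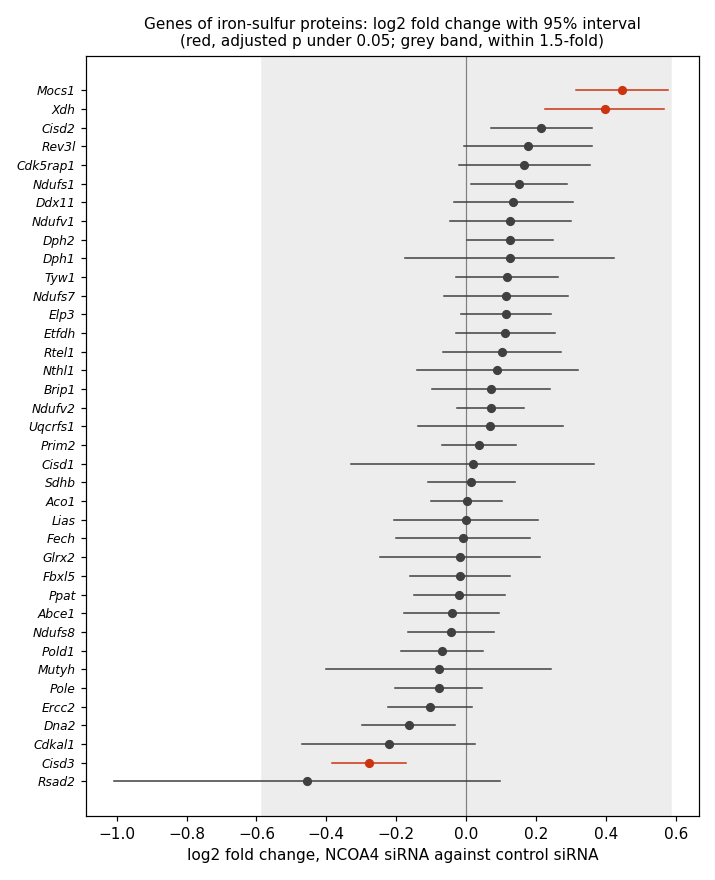
log2 fold change of NCOA4 siRNA against control siRNA (x axis) with its 95% interval for tested genes of iron-sulfur proteins; red marks an adjusted p under 0.05 and the grey band lies within 1.5-fold. Mocs1 (0.45), Xdh (0.40) and Cisd3 (-0.28) are red.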

How the data were processed

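Stranded poly(A) libraries were sequenced with paired ends. The submitters' processing notes name Trimmomatic 0.33, HISAT2 2.1.0, featureCounts and the mm10 build. The authors deposited TPM per gene and library, not scaled between libraries. Symbols and positions came from GENCODE M21 (GRCm38), which named 55227 of the 55487 identifiers. Reads were rebuilt from TPM and exon length, and 98.4% of the 21096 genes above 0 gave whole reads (tolerance 0.01) in all 6 libraries. For the other 337 a fitting length was found from the values. Depth limited Hscb most.

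Tests used limma 3.58.1 in R 4.3.3, with a mean-variance trend, on log2(TPM + 0.5) of the 13829 genes averaging at least 0.5 TPM, with Benjamini-Hochberg adjustment. Fold changes are on this scale. Alternatives numbered 16, with limma-voom on rebuilt reads among them. The assembly genes and both further lists were chosen with earlier results of these data known. Besides the assembly genes, genes were named for their role or, up to 5 per list, for an adjusted p under 0.05. Near-identical or overlapping genes, markers, Ndufs1, Etfdh, Ndufv2 and genes of the closing section were named after values were seen. A few genes of the further lists entered the counts and are not reported here by name or drawn.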

Additional observations from a re-analysis of the deposited data

How the results depend on the processing

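No assembly gene passed both thresholds under any of the 16 alternatives. Nfs1 stayed higher in all 16, with log2 fold changes of 0.30 to 0.39, and its adjusted p was under 0.05 in 12 of them. The number of assembly genes with an adjusted p under 0.05 was 2 with a mean TPM of at least 5 and with limma-voom, and 0 to 1 with single libraries left out. With the replicate number as a block it was 0 (Nfs1 at 0.0815), and 0 for both further lists. Whether the replicate numbers pair the libraries is not given in the labels. Same-numbered libraries correlated at -0.02 to 0.03 in their deviations from the group means. With 3 libraries per group these correlations cannot settle the question. The median of the assembly genes moved from 0.12 to 0.0593 with median centring, which put the median of all genes at -0.03, and was 0.11 to 0.15 with single libraries left out. The count of other pathway genes was 0 with no filter and with eBayes without a trend, 1 with median centring, quantile normalization or the mitochondrial genome removed, and 0 to 0 with single libraries left out. The count of iron-sulfur protein genes was 4 with median centring (Dna2 added) and with limma-voom (Cisd2 added), 1 with eBayes without a trend and 0 to 3 with single libraries left out. Log2 fold changes crossed 0 for 4 genes. With single libraries left out, Ciao1 ran from -0.0944 to 0.0065 (highest without control replicate 2), Glrx5 from -0.0681 to 0.0776 (0.0313 without NCOA4 siRNA replicate 2, 0.0776 without control replicate 3), Isca1 from -0.0746 to 0.0288 (0.0072 and 0.0117 without control replicates 2 and 3, 0.0288 without NCOA4 siRNA replicate 1) and Nubp1 from -0.0043 (control replicate 1 omitted) to 0.127. Glrx5 was at 0.0117 with limma-voom and Nubp1 at -0.0022 with median centring. Ncoa4 met both thresholds in all 16. Its adjusted p from limma was 0.00127 in the main test, 0.0176, 0.0184 or 0.0162 without NCOA4 siRNA replicate 1, 2 or 3, and 0.0261 with the block. Shares of all genes passing the adjusted threshold are given here for the main test (5.42%), limma-voom (10.8%) and without control replicate 1 (5.84%). Under the other settings the counts above have no background beside them, so a loss particular to these lists cannot be told from a loss over all genes.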

Other observations

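Mocs1 and Xdh belong to the molybdenum cofactor branch, so its other genes were looked up after those values had been seen. Mocos, whose product adds sulfur to the cofactor of xanthine dehydrogenase, was at 15.7, 16.4 and 15.9 TPM in the control libraries and at 13.5, 12.2 and 10.7 TPM in the NCOA4 siRNA libraries. Every NCOA4 siRNA library was below every control, with a difference of the group means of -0.39 on the log2 scale (adjusted p = 0.0543, limma with Benjamini-Hochberg adjustment). Mocs2 and Mocs3, which act after MOCS1 in making molybdopterin, had log2 fold changes of -0.06 and -0.18, and Gphn, which inserts the metal, of 0.05. Suox, the sulfite oxidase gene, had a log2 fold change of -0.11. None of these 5 genes had an adjusted p under 0.05 (0.0543 to 0.641).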
